A study of Mus musculus with 16 samples.

Results

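Nuclear receptors are transcription factors, many of which are switched on or off by a small ligand such as a steroid, thyroid hormone, a retinoid or a fatty acid. Most bind short DNA half-sites as homodimers or as heterodimers with a retinoid X receptor (RXR), and they act through coregulators, of which PGC1α (Ppargc1a) is one. In the brain they are known for roles in the timing of development, the circadian clock, the stress response and the response to sex hormones. The family was followed here through every probe set (a group of short probes that reads 1 transcript) whose only gene symbol was that of 1 of 46 listed receptors. This gave 115 of 45101 probe sets, for 44 of the 46 genes. Nr1h2 and Nr2e3 had no such probe set and were not analysed here. Of the 44 genes, 16 had 1 probe set and 28 had several, up to 9 for Rora.

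The arrays came from C57BL/6J mice, either wild type (WT) or homozygous for a 4-bp CRISPR/Cas9 deletion just after the putative start codon of the SINE exon of Ppargc1a (SINE KO, here KO). WT and KO mice were littermates, and the mutants form 1 line, so genotype and any other change fixed in that line cannot be told apart. Brains were cleaned of brain stem remnants and split into the cerebellum (cb) and the rest of the brain (Br). Each of the 8 combinations of genotype, sex and brain part has 2 arrays, described as independent specimens, which gives 16 arrays. The age of the mice is not given in the sources used here. Whether a cb and a Br array came from the same mouse is not stated either. A deletion of this size need not remove the transcript, so the calls of Ppargc1a cannot check the genotype. All 5 of its probe sets were detected on all 16 arrays.

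The value table holds detection calls in place of intensities. A probe set is therefore either detected on an array (level 2) or not, and a receptor detected on every array can still differ in amount. No source states this reading, which rests on the values themselves. All 5 probe sets of Actb and all 3 of Gapdh, which every cell expresses, were detected on all 16 arrays. Between 25517 and 28155 probe sets were detected per array. In whole tissue, fewer cells of a type and less RNA per cell cannot be told apart.

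Markers of the dissected tissue stood where the labels put them on most arrays. Purkinje cell markers (6 genes, 14 probe sets) were all detected on 7 of the 8 cb arrays. The probe sets of Calb1 and Slc1a6 and Car8 1427482_a_at and 1457904_at were detected on all 16 arrays, so they cannot tell the parts apart. Granule cell markers (8 genes, 15 probe sets) stood at 93.3% on the same 7 cb arrays and at 73.3% on the WT cb female replicate 2. On Br arrays they stood at 46.7% to 80%. Forebrain neuron markers (8 genes, 12 probe sets) stood at 83.3% on every Br array and at 25% to 66.7% on cb arrays. Of these, Emx1 1441777_at and Tbr1 1416711_at were detected on all 8 Br arrays and on no cb array. Neurod6 1418047_at, Drd2 1418950_at and Rgs9 1418691_at were detected on all 16 arrays. The WT cb female replicate 2 stood apart, with 57.1% of Purkinje cell and 66.7% of forebrain probe sets detected, against 100% and 25% to 41.7% on the other cb arrays. The KO Br female replicate 1 had 92.9% of Purkinje cell probe sets, against 50% to 78.6% on the other Br arrays. Hindbrain Hox probe sets stood at 42.1% to 57.9% on the other 3 female cb arrays and at 5.26% to 10.5% on the rest of the cb arrays. Pituitary probe sets were detected at 90.9% on the KO Br male replicate 1 and at 0% to 36.4% on the other Br arrays. On cb arrays they ran from 9.09% to 63.6%, the highest being the WT cb female replicate 2. The part of these differences in the receptor calls was not tested beyond leaving out the arrays.

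**Figure D1:**
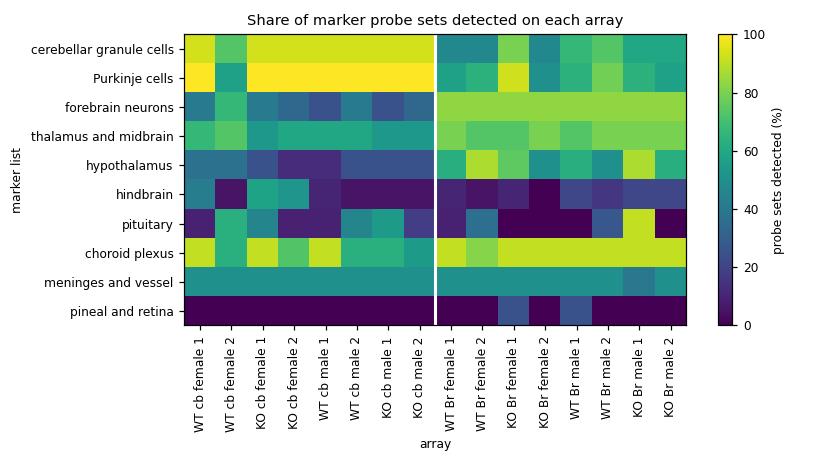
Share of the probe sets of each marker list (rows) detected on each of the 16 arrays (columns; genotype, brain part, sex, replicate), in percent from 0 to 100 by colour; the white line parts cb from Br. The WT cb female replicate 2 has 57.1% of Purkinje cell probe sets, where the other cb arrays have 100%.

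Stretches before transcription starts of 3 receptors are shown because these receptors had a probe set whose detection passed the test between the brain parts, described below. Each is the 250 bases before a transcription start, 5′ to 3′ on the plus strand, from RefSeq on GRCm38.p6. They are chr1:167598112-167598361 and chr1:167618015-167618264 for the 2 starts of Rxrg, chr9:8899583-8899832 for Pgr and chr9:68653536-68653785 for Rora. RefSeq places the first base of Pgr and of Rora before these stretches, which therefore lie within the annotated span of the gene, as does the second one of Rxrg. Capitals mark AGGTCA, the half-site that many nuclear receptors bind, searched on both strands together with its reverse complement TGACCT.
Rxrg, upstream start: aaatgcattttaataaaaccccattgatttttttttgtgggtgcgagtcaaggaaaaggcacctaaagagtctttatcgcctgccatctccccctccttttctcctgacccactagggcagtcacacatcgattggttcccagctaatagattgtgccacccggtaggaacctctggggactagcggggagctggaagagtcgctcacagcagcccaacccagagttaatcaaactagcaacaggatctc
Rxrg, downstream start: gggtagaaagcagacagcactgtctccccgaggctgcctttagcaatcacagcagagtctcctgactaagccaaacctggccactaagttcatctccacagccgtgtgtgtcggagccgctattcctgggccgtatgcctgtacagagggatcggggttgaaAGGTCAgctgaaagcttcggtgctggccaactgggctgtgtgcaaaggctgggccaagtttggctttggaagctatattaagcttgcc
Pgr: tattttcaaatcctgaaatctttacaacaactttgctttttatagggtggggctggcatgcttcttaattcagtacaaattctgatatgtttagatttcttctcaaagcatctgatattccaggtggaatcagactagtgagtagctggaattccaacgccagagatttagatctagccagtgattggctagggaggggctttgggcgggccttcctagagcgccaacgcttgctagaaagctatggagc
Rora: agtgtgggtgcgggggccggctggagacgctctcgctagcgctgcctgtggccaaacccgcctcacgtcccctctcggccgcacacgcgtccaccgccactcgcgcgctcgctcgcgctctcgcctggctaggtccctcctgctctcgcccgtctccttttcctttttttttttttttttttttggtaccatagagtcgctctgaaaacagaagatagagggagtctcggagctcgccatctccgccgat
The downstream start of Rxrg holds 1 match, and the other 3 stretches hold none. Over 32851 promoters of the same length, 14% hold at least 1 match, and so do 17.5% of 63 promoters of 42 of the receptors (11 promoters). The steroid receptor half-site AGAACA, with its reverse complement TGTTCT, is in none of the 4 stretches, in 6.35% of the receptor promoters and in 16.1% of all promoters. A match is a run of letters and not a bound site, and its absence covers this window alone.

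Of the 44 receptor genes, 21 had at least 1 probe set detected on all 16 arrays, 15 were detected on some arrays, and 8 on none. By probe set, 40 of 115 were detected on all arrays (34.8%), 40 on some (34.8%) and 35 on none (30.4%). Over the whole table these shares were 48%, 25% and 27%, and over the 34958 probe sets with 1 gene symbol 52.5%, 23.1% and 24.4%. The 8 genes detected on no array were Rara, Pparg, Nr1d1, Nr1h4, Nr1i3, Esr2, Nr5a1 and Nr0b1. All but Nr5a1, which has 2, are read by 1 probe set. In 7 genes, 1 probe set or more was detected on all arrays while another was detected on none, so a missing call on a single probe set does not show that its gene was off. Ppard, for example, was detected on all 16 arrays by 1439797_at and on none by 1425703_at.

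**Figure D2:**
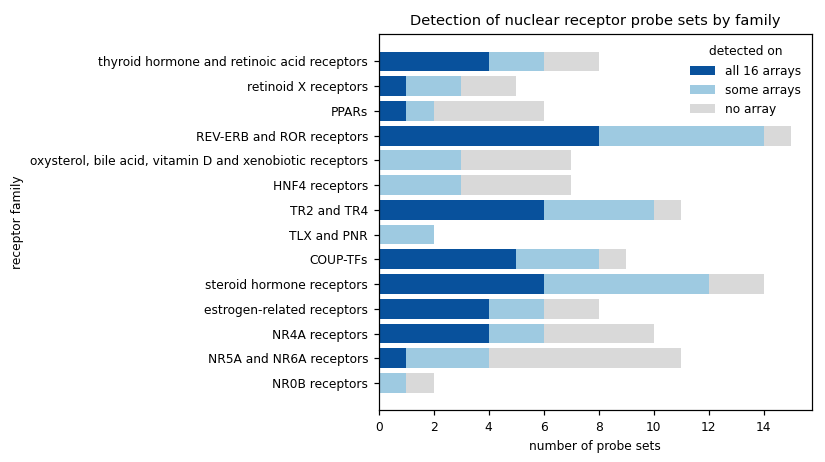
Number of nuclear receptor probe sets (horizontal axis) in each receptor family (vertical axis) that were detected on all 16 arrays, on some or on none. The REV-ERB and ROR receptors have 8 of 15 probe sets detected on all arrays, and the HNF4 receptors 0 of 7.

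Among the hormone and retinoid receptors of the first family, all 3 probe sets of Thra, which encodes the thyroid hormone receptor α, and the single one of Rarb, a retinoic acid receptor, were detected on all 16 arrays. The only probe set of Thrb was detected on 6 cb and 8 Br arrays. Rarg was detected on 4 cb and 6 Br arrays by 1 of its 2 probe sets. Rara, the retinoic acid receptor α, was detected on none by its only probe set, 1450180_a_at. The 3 retinoid X receptors are the shared heterodimer partners of the family, and they differed in where they were detected. Rxrb was detected on all 16 arrays, Rxra on 5 cb and 8 Br arrays by 1 of 3 probe sets, and Rxrg on Br arrays alone.

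The fatty acid receptors were detected unevenly. Ppard was detected on every array and Ppara on 7 cb and 6 Br arrays by 1 of its 3 probe sets. Pparg, the receptor best known from fat cells, was detected on none by its only probe set, 1420715_a_at. The sterol, bile acid and xenobiotic receptors had no probe set detected on all arrays, of 7. Nr1h3, the oxysterol receptor LXRα, was detected on 5 cb arrays and no Br array, and Vdr, the vitamin D receptor, on 1 array. Nr1i2, the xenobiotic receptor PXR, was called on 15 arrays by 1425723_at and on none by 1451807_at. Hnf4a, a regulator of liver genes, was detected on 6 arrays by any of its 4 probe sets, and Hnf4g on 1 array.

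In 3 families, the REV-ERB and ROR receptors, Nr2c1 with Nr2c2, and the COUP-TFs, 53.3% to 55.6% of probe sets were detected on all arrays. That is near the 52.5% of all probe sets with 1 gene symbol. The thyroid hormone and retinoic acid receptors and the estrogen-related receptors stood at 50%. Among the REV-ERB and ROR receptors, which repress and activate clock genes, 6 of 9 probe sets of Rora, 1 of 3 of Rorb and 1 of 2 of Nr1d2 were detected on all 16 arrays, and Nr1d1 by its only probe set on none. The orphan receptors Nr2c1 and Nr2c2 had 6 of 11 probe sets on all arrays. The COUP-TFs, regulators of neuronal identity and migration, had 5 of 9, with Nr2f1, Nr2f2 and Nr2f6 all represented. All 3 estrogen-related receptors, which bind PGC1 coactivators without a known natural ligand, had a probe set on every array: 1 of 2 for Esrra, 1 of 3 for Esrrb and 2 of 3 for Esrrg.

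Of the steroid hormone receptors, Nr3c1 (the glucocorticoid receptor) was detected on all arrays by 4 of 6 probe sets, Nr3c2 (the mineralocorticoid receptor) by its only one and Pgr (the progesterone receptor) by 1 of 3. Esr1, the estrogen receptor α, was detected on 4 cb and 5 Br arrays by either of 2 probe sets, and 1421244_at on none. The activity-induced NR4A receptors were detected on all 16 arrays for Nr4a1 and Nr4a2 and on 15 for Nr4a3. Nr6a1, an orphan receptor of germ cells and embryos, was detected on all arrays by 1 of 5 probe sets. Nr5a2 was detected on 3 cb and 5 Br arrays, and Nr0b2 on 1 array.

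**Figure D3:**
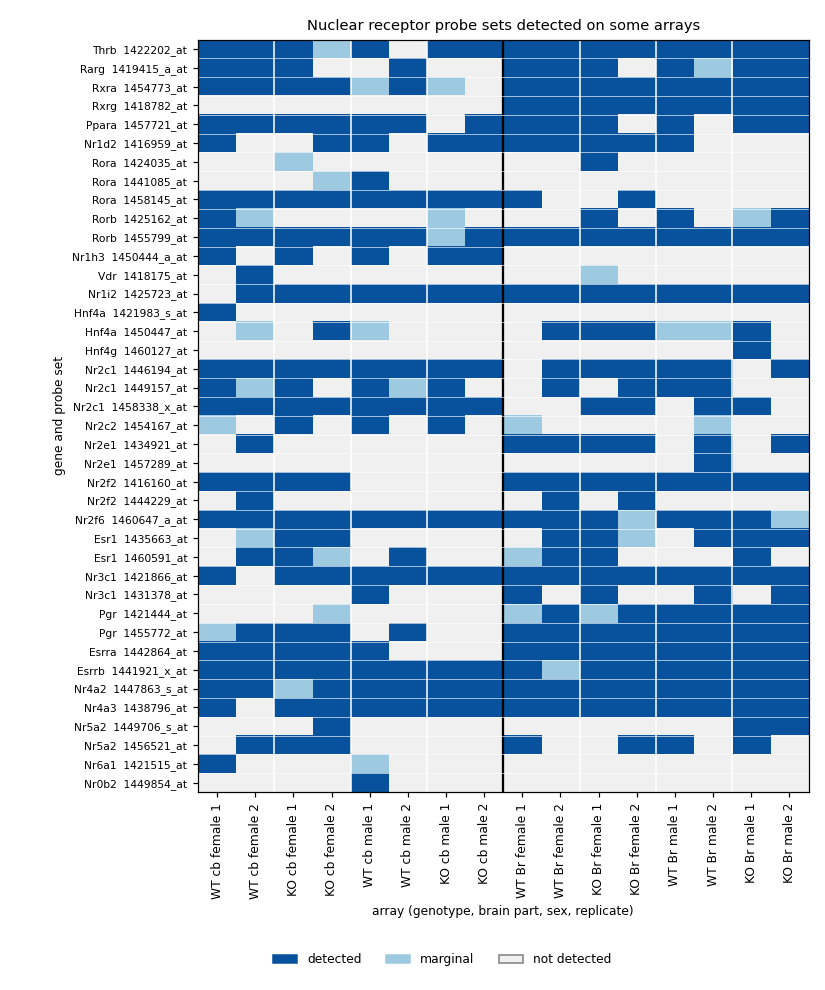
Calls of the 40 nuclear receptor probe sets detected on some of the 16 arrays. Rows are genes with their probe sets, columns are arrays (genotype, brain part, sex, replicate), dark blue is detected, light blue marginal (level 1) and grey any lower level, and the black line parts cb from Br. Rxrg is detected on all 8 Br arrays and on no cb array.

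The comparison of the brain parts asks where each receptor was detected. Of the 115 receptor probe sets, 13 were detected on more cb than Br arrays (11.3%, against 9.64% of all probe sets) and 24 on more Br than cb arrays (20.9%, against 12.7%). Rxrg and Pgr 1421444_at were detected less often, and Rora 1458145_at more often, in cb. These 3 were the calls of Fisher's exact test over 8 and 8 arrays, two-sided, with Benjamini-Hochberg adjustment over the probe sets whose total of detecting arrays allows an unadjusted p under 0.05. Of the receptor probe sets 13 could reach that p, so 3 of 13 were called, against 17.1% of all 3873 such probe sets (662). The receptors' share lies near that background, and nothing is read from it. At an unadjusted p under 0.05 there were 5 receptor probe sets, against 32.2% of the 3873. Adjusted over all 45101 probe sets, 0% of probe sets and no receptor were called.

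Rxrg, the retinoid X receptor γ, has a single probe set, 1418782_at. It was detected on 0 of 8 cb arrays and on 8 of 8 Br arrays, 2 of 2 in each sex and genotype, so the groups did not overlap. Such a complete split was seen in 0.31% of all probe sets (140). The exact p was 0.000155, the smallest that 8 against 8 arrays can give, and the adjusted p from Fisher's exact test was 0.0043. Adjusted over all probe sets it was 0.0501. A split that is complete over all arrays is complete within WT, within KO and within each sex by necessity, so those splits add no support. Of all probe sets, 0.585%, 1.25% and 0.792% split completely within WT, within KO and within females.

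Pgr, a steroid receptor that is itself induced by estrogen in many tissues, was read by 3 probe sets that behaved differently. Probe set 1439527_at was detected on all 16 arrays. Probe set 1421444_at was detected on 0 of 8 cb arrays and 6 of 8 Br arrays (exact p = 0.00699, adjusted p = 0.0409 by Fisher's exact test). Among the Br arrays these were 1 of 2 in the females of each genotype and 2 of 2 in the males of each genotype. On the 2 female Br arrays without a call the probe set was marginal, as it was on 1 cb array. With marginal calls counted as detected it stood at 1 cb and 8 Br arrays (exact p = 0.0014), and the females and males of Br no longer differed. Probe set 1455772_at was detected on 4 cb and 8 Br arrays (exact p = 0.0769). Both probe sets that varied were thus detected on more Br than cb arrays, although 1 of them passed the test and the other did not. Hypothalamus markers (7 genes, 8 probe sets) were detected at 50% to 87.5% on Br and at 12.5% to 37.5% on cb arrays. Avp was detected on all 8 Br and no cb array, while Pmch was detected on 15 of the 16 arrays and Sim1 1420736_at on 13. The part of these markers in the calls of Pgr was not tested.

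Rora, the ROR receptor that Purkinje cells need for their development, had 6 probe sets on all arrays and 3 that varied. Probe set 1458145_at was detected on all 8 cb arrays and on 2 Br arrays, the WT Br female replicate 1 and the KO Br female replicate 2 (exact p = 0.00699, adjusted p = 0.0409 by Fisher's exact test). Permuted within strata of the other factors, the adjusted p was 0.0565 for this probe set and for Pgr 1421444_at alike, and without the WT cb female replicate 2 and the KO Br female replicate 1 it was 0.0674 for Rora (Fisher's exact test). Of the others, 1424035_at was detected on 1 Br array and 1441085_at on 1 cb array. The difference thus rests on 1 of 9 probe sets, and the 6 detected everywhere cannot show one in a table of calls.

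Other receptors differed by 4 or more arrays between the brain parts without passing the test. Nr1h3 1450444_a_at was detected on 5 cb arrays, at least 1 in each sex and genotype, and on no Br array (exact p = 0.0256, adjusted p = 0.0944). Nr2e1, which encodes the neural stem cell regulator TLX, was detected by 1434921_at on 6 Br arrays and on 1 cb array (exact p = 0.0406, adjusted p = 0.126). That cb array was the WT cb female replicate 2, on which forebrain markers were high. Without it, Nr1h3 and Nr2e1 were called by Fisher's exact test (adjusted p = 0.0371 each). Without both that array and the KO Br female replicate 1, neither was called (adjusted p = 0.0674 each, Fisher's exact test). Nr1h3 was called in 3 of 16 runs that left out 1 array, each time a cb array that lacked it. The adjusted p was 0.0438 without the WT cb male replicate 2 and 0.0448 without the KO cb female replicate 2 (Fisher's exact test). Leaving out an array that goes against a difference lowers the exact p. These calls of Nr1h3, and that of Nr2e1, therefore add no support. Nr2c1 1458338_x_at was detected on 8 cb and 4 Br arrays, and Nr2f2 1416160_at on 4 cb and 8 Br arrays (exact p = 0.0769 each). These totals were too high for an exact p under 0.05. Of the other probe sets of these genes, 2 of Nr2c1 and 3 of Nr2f2 were detected on all 16 arrays.

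**Figure D4:**
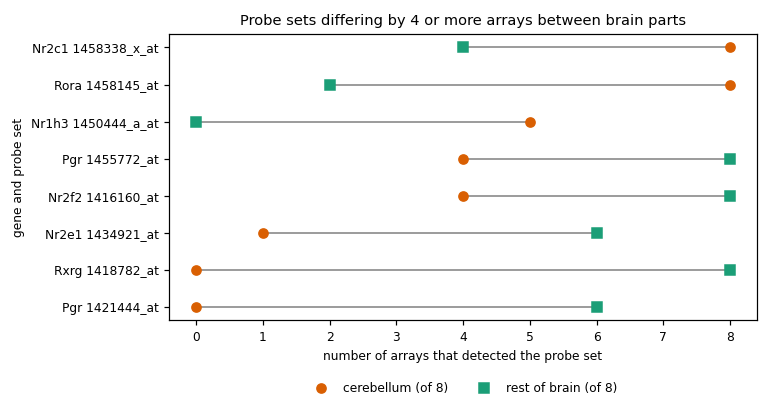
Number of the 8 cb arrays (circles) and of the 8 Br arrays (squares) that detected each receptor probe set whose numbers differed by 4 or more; lines join the pairs. Rxrg and Pgr 1421444_at lie at 0 of 8 in cb and at 8 and 6 of 8 in Br, and Nr1h3 lies at 5 and 0.

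The receptor probe sets detected per array numbered 54 to 62 in cb (50.7% ± 2.89, SD, n = 8) and 60 to 65 in Br (53.9% ± 1.39, SD, n = 8), with overlap. The difference of the means was -3.26 percentage points, and -1.19 over all probe sets. Within cb the females had 60 to 62 and the males 60 and 55 (WT) and 54 and 54 (KO). The KO cb males were also the lowest group over all probe sets, with 57.5% detected against 59.4% to 61% in the other groups. Counted by gene, 62.8% ± 4.02 of the receptors were detected in cb and 68.5% ± 3.08 in Br (SD, n = 8 each). Within a group, the 2 arrays disagreed on 3.48% to 13% of receptor probe sets, against 5.98% to 7.95% of all probe sets.

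**Figure D5:**
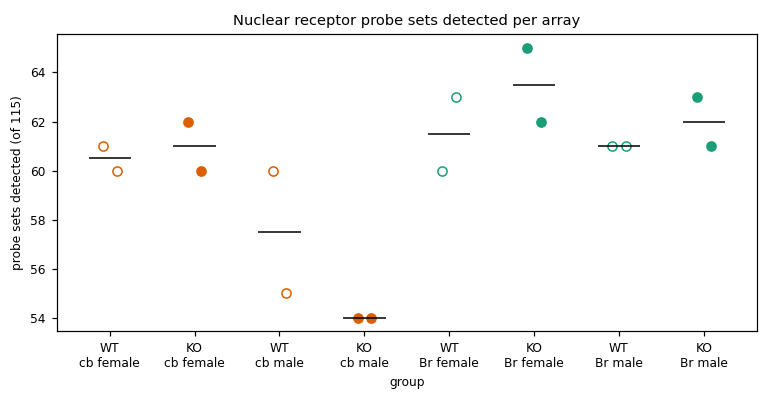
Number of the 115 nuclear receptor probe sets detected on each array (points) by group, with the mean of each pair (line); orange is cb, green Br, open symbols WT and filled symbols KO. The KO cb males are lowest at 54 and 54, and the KO Br female arrays reach 65.

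The comparison of KO with WT asks whether loss of the SINE isoform goes with a change in the receptors that PGC1α partners. No receptor probe set was called over 8 KO and 8 WT arrays (Fisher's exact test, adjusted), and none had an unadjusted p under 0.05. Of all probe sets 0% were called, and 0.981% of the 3873 probe sets had an unadjusted p under 0.05. No receptor probe set differed by 4 or more arrays between the genotypes, except that Nr2c1 1449157_at stood at 3 KO and 7 WT arrays once marginal calls were counted as detected (exact p = 0.119). The widest gaps were 3 arrays, for Hnf4a 1450447_at (4 KO, 1 WT), Esr1 1435663_at (5 KO, 2 WT) and Nr5a2 1449706_s_at (3 KO, 0 WT). With marginal calls counted, Hnf4a 1450447_at stood at 4 KO and 5 WT arrays, so its gap rests on the cut between marginal and detected. Esr1 1435663_at then stood at 6 KO and 3 WT arrays, and Nr5a2 1449706_s_at did not change. The share of receptor probe sets detected was 52.3% ± 3.52 in KO and 52.3% ± 2 in WT (SD, n = 8 each). Partial differences cannot be seen well with 8 arrays a side, so these counts do not show that the genotypes were alike.

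Within one sex and brain part there are 2 arrays of each genotype, for which the smallest exact p is 0.333, so the calls are given as a description. In the female cb, 1 receptor probe set was detected on the 2 KO arrays alone, as against 1.45% of all probe sets that split completely either way. It was Esr1 1435663_at, marginal on the WT cb female replicate 2. The same probe set was detected on no male cb array, on 1 of 2 WT and 1 of 2 KO female Br arrays, and on 1 WT and 2 KO male Br arrays. The other varying probe set of Esr1, 1460591_at, was detected on 1 WT and 1 KO female cb array. Hindbrain Hox probe sets stood at 52.6% and 57.9% on the KO female cb arrays and at 42.1% and 5.26% on the WT ones, and their part in the Esr1 calls was not tested.

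In the female Br, Nr2c1 1458338_x_at was detected on the 2 KO arrays alone (0.94% of all probe sets split completely). In the male Br, 1.02% of all probe sets split completely, and 2 receptor probe sets did. Nr5a2 1449706_s_at was detected in KO alone and Nr2c1 1449157_at in WT alone. The 2 splits of Nr2c1 probe sets thus lay in different sexes. In the other sex of Br neither leaned: 1449157_at was detected on 1 WT and 1 KO female array, and 1458338_x_at on 1 WT and 1 KO male array. The KO Br male replicate 1 also carried pituitary markers, and Nr5a2 1449706_s_at was detected on it and on the KO Br male replicate 2, which carried none. In the male cb no receptor split completely, against 1.1% of all probe sets. No receptor probe set split completely over both sexes of a brain part, against 0.0377% of all probe sets in cb and 0.02% in Br.

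Between the sexes, no receptor was called over 8 female and 8 male arrays, and none had an unadjusted p under 0.05. Of all probe sets 0% were called, and 3.33% of the 3873 probe sets at an unadjusted p under 0.05. The widest gap was that of Nr2f2 1416160_at, the COUP-TFII probe set described above, detected on 8 female and 4 male arrays (exact p = 0.0769). With marginal calls counted, Esr1 1460591_at reached the same gap, at 6 female and 2 male arrays. All the missing calls of Nr2f2 1416160_at were in cb. There it was detected on 4 of 4 female and 0 of 4 male arrays, 2 of 2 females in each genotype, and on all 8 Br arrays. Of these male cb arrays, 3 detected the fewest probe sets of all 16 arrays, 25517 to 26384, while the WT cb male replicate 1 detected 27204. The part of these totals in the calls of Nr2f2 was not tested. Of all probe sets, 0.235% split completely between the sexes in cb (106). The exact p within cb was 0.0286, the smallest that 4 against 4 arrays allow. The difference of the sex effect between the brain parts had an exact permutation p of 0.0286 and an adjusted p of 0.653 over the whole table. Because all 8 Br arrays detected the probe set, that exact p repeats the one within cb and is not a second result. Of the other 5 probe sets of Nr2f2, 3 were detected on all arrays and 1 on none, and these cannot show a difference in a table of calls. The last, 1444229_at, was detected on 3 female arrays, 1 of them in cb, and on 0 male arrays (exact p = 0.2 by Fisher's exact test). In the male arrays alone, 1.44% of all probe sets split completely between the brain parts, and 4 receptor probe sets did: Rxrg, Rora 1458145_at, Nr2f2 1416160_at and Pgr 1421444_at.

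Rxra 1454773_at and Esrra 1442864_at had the same counts, 8 female and 5 male arrays (exact p = 0.2 each). Both were detected on 4 of 4 female and 1 of 4 male cb arrays and on all Br arrays. Of the 3 male cb arrays without a call, 2 were marginal for Rxra and none for Esrra, so with marginal calls counted Rxra stood at 8 female and 7 male arrays and Esrra at 8 and 5. The 3 male cb arrays without a call of Esrra detected the fewest probe sets in all, 25517 to 26384, against 26645 or more on every other array. Rxra was detected on 1 of them, the WT cb male replicate 2. It lacked a call on the WT cb male replicate 1, which detected 27204. The part of these totals in the calls of Rxra and Esrra was not tested.

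Genes that work with the receptors were followed through 3 lists. Of 28 coregulator genes with 81 probe sets, 8 probe sets could reach an exact p under 0.05 and 3 were called between the brain parts, all lower in cb. Over all probe sets 17.1% of those that could reach it were called, and 447 of the 662 calls were lower in cb. These were Bcl11a 1426552_a_at on 1 cb and 8 Br arrays (adjusted p = 0.0138 by Fisher's exact test) and Bcl11b 1438784_at and 1450339_a_at on 2 cb and 8 Br arrays each (adjusted p = 0.0409 each). Other probe sets of the same genes were detected in both parts, among them Bcl11a 1419406_a_at and 1456632_at and Bcl11b 1452966_at on all 16 arrays. Bcl11a and Bcl11b are zinc finger proteins of forebrain neurons that bind COUP-TFs. Of 24 genes of ligand supply with 39 probe sets, 2 could reach an exact p under 0.05 and 1 was called: Crabp1 1448326_a_at, a carrier of retinoic acid, on 2 cb and 8 Br arrays (adjusted p = 0.0409 by Fisher's exact test). Of 27 target genes with 54 probe sets, 3 could reach it and 1 was called, the Pgr probe set already described. No probe set of these lists was called between the genotypes or the sexes, and none had an unadjusted p under 0.05. Among coregulators 64.2% of probe sets were detected on all arrays, against 34.8% of the receptors' own.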

How the data were processed

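RNA from cerebellum and rest of brain was hybridised to Affymetrix 3′ IVT arrays. A human array is named in the methods, whereas the probe sets belong to a mouse array. The authors used MAS5 per the methods and the labels, and RMA per the results. The deposited scores take 5 distinct values, which as 4-byte numbers begin with 2, 1, 0, -1 or -2. Level 2 was read as detected, and lower levels as not detected. This reading is not stated in the sources used here, and no intensity was analysed. Genes came from the platform annotation (34958 probe sets with 1 symbol, 932 with several, 9211 unnamed).

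Groups came from the sample titles. Each probe set was tested with Fisher's exact test, two-sided, for brain part, genotype and sex. The Benjamini-Hochberg adjustment ran over the 3873 probe sets whose total of detecting arrays allows an exact p under 0.05, with a threshold of 0.05. Arrays that may share a mouse were treated as independent, and p-values measure the spread between these arrays. The precision is limited by the number of arrays. The test was checked on calls with known answers.

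The members, lists, tests and rules were chosen with earlier results of these data known. Receptors are named in full where called, where 4 or more arrays apart between brain parts, genotypes or sexes, or where split completely between the genotypes within a sex and brain part. Up to 4 called genes of each further list are named, with Ppargc1a, Esr1, Pparg and Rara, and probe sets beyond that were chosen after their values were seen. Alternatives were adjustment over all probe sets, discrete adjustment, marginal calls as detected, negative levels as missing, genes in place of probe sets, removal of less specific probe sets, the replicate block, strata and leaving out arrays. The correlations of same-numbered arrays' deviations from their group means ran from -0.0181 to 0.0647. With 2 arrays a group and values of few levels, these cannot show whether same-numbered arrays share a mouse. The interaction test and the removal of 2 arrays together were added after seeing the data. Tests ran in Python 3.11.15 with scipy 1.17.1, tables were handled with pandas 2.3.3 and numpy 2.4.6, and plots were drawn with matplotlib 3.10.9.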

Additional observations from a re-analysis of the deposited data

Results flagged for a closer look

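In the number of receptor probe sets detected per array, 4 values lay far from the rest of their group by the gap to the nearest array over the group's range. Chance gives about 1 in 20 where values are not tied. The same groups were looked at for counts of probe sets and counts of genes, 28 looks together, and no gene count was flagged. These are whole counts with ties, for which that rate does not hold. The WT cb male replicate 2 had 55, low among the 8 WT arrays and among the 4 WT cb arrays. Over all probe sets it detected 26368, also the fewest among the WT arrays. The WT cb male replicate 1 had 60, high among the 4 male cb arrays. The KO Br male replicate 1 had 63 and the other 3 male Br arrays 61 each, so that any other value would have stood out.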

How the results depend on the processing

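Between the brain parts, the 3 called receptor probe sets became 0 with adjustment over all probe sets (0 of all probe sets called), 1 when counted by gene (283 genes) and 1 with permutation within strata of the other factors (393 probe sets). The discrete adjustment called 4 receptor probe sets, Nr1h3 being the added one, and 1052 of all, against 662; between the sexes it called 10 of all and no receptor. By gene, Rora and Pgr were detected on all 16 arrays and Rxrg alone was called. Within strata, Rora 1458145_at and Pgr 1421444_at had an adjusted p of 0.0565. With marginal calls counted as detected, 3 receptor probe sets and 641 of all were called. With the replicate block, 3 receptor probe sets were called for brain part, 0 for genotype and 0 for sex, and no call changed. Leaving out 1 array gave 3 to 5 receptor calls, with Rxrg, Rora and Pgr called each time, and 5 came without the WT cb female replicate 2 (986 of all probe sets). Genotype and sex gave 0 receptor calls under every alternative run. Without the WT cb female replicate 2 and the KO Br female replicate 1 together, 2 receptor probe sets were called. Rora 1458145_at, Nr1h3 1450444_a_at and Nr2e1 1434921_at each had an adjusted p of 0.0674 there (Fisher's exact test). Receptor probe sets split completely between KO and WT went to 0 by gene in the female cb, the female Br and the male Br. With 1 array left out, which makes such a split easier, they ran from 3 to 7 in the female cb, 2 to 4 in the female Br, 0 to 7 in the male cb and 3 to 6 in the male Br. The difference in share detected ran from -3.73 to -2.73 percentage points between the brain parts and from -0.637 to 0.761 between the genotypes.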
